A study of Mus musculus with 36 samples.

Results

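The genes described here were 9 interferon-stimulated genes of the mouse liver: Irf7, Isg15, Ifit1, Ifit2, Ifit3, Usp18, Oasl2, Irgm1 and Ifi44. They were chosen by name, so that every probe annotated to one of these genes, or carrying its RefSeq accession, was taken whatever its value. The rule found 12 of the 41174 non-control probes on the array, of which 11 were among the 21781 probes that the authors kept as expressed. Ifit2, Irgm1 and Ifi44 had 2 probes each. One of the 2 Ifit2 probes was not in the authors' table, and each gene is given by its brightest probe unless stated otherwise.

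The 36 livers came from adult male mice, C57BL/6J by the labels and the substrain C57BL/6JOlaHsd by the study's methods, 12 in each of 3 groups, with 1 array per mouse. All of them ate a mild-high-fat diet, in which fat supplied 30% of energy, during an adaptation. It lasted 3 weeks by the labels and 2 weeks by the study's methods. The baseline group (t=0) was killed at its end. The control group (HF) received the same diet without supplement for another 12 weeks, and the quercetin group (HF-Q) received it with 0.33% (w/w) quercetin, a flavonoid found in onions and apples, for the same 12 weeks. All animals were fasted for at least 2 h before they were killed. Both 12-week groups were therefore older than the baseline group, and age and time on the diet cannot be told apart in any comparison with baseline. RNA of each liver was labelled with Cy5 and hybridised against a Cy3-labelled pool of all livers, and levels are given on the log2 scale of the authors' normalised table, on which 1 unit is a factor of 2.

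Interferons are secreted proteins, and those of type I are released by cells on sensing viral or bacterial nucleic acid. Type I interferons bind the receptor Ifnar1/Ifnar2, and the kinases Jak1 and Tyk2 then activate a transcription factor complex that includes Irf9 and binds a DNA element, the interferon-stimulated response element, in front of target genes. Interferon gamma acts through Ifngr1/Ifngr2 and induces Irf1 and a group of large GTPases. The 9 genes are targets of these pathways. Irf7 is a transcription factor that amplifies the production of type I interferon. Isg15 is a ubiquitin-like protein that is joined to other proteins, and Usp18 removes it and also restrains the type I receptor. Ifit1, Ifit2 and Ifit3 bind foreign RNA or assist in doing so and lie together on chromosome 19. Oasl2 is an oligoadenylate synthetase-like protein, Ifi44 is an interferon-induced cytoplasmic protein, and Irgm1 is an immunity-related GTPase that acts on membranes and autophagy.

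The response element is shown here because it is the sequence feature through which these genes are known to be reached. Promoter windows from RefSeq (build GRCm38.p6, 250 bases before to 50 bases after a gene start, 300 bases in all) were found for 8 of the 9 genes, and not for Usp18. The core GAAANNGAAA was searched on both strands, and overlapping matches were counted. It was present for 4 of these 8 genes (Isg15, Ifit1, Ifit3 and Irgm1), against 3.99% of all 27025 genes with a window and 3.44% of all 32851 windows. In the stretches below, written 5′ to 3′ on the strand of the gene, capitals mark the 4 fixed bases at each end of a match. Isg15 has 3 overlapping matches, the first beginning 78 bases before the start (chr4:156200860-156200911, minus strand). Ifit1 has 2 matches on the opposite strand, which read as TTTC pairs here, 104 and 85 bases before the start (chr19:34640770-34640828, plus strand). Ifit3 has 2 on the opposite strand, 156 and 122 bases before the start (chr19:34583358-34583431, plus strand). Irgm1 has 2 overlapping matches that begin 30 and 24 bases before the start (chr11:48871421-48871465, minus strand).
Isg15: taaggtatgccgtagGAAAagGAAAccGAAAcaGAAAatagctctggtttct
Ifit1: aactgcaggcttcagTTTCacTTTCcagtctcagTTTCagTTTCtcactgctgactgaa
Ifit3: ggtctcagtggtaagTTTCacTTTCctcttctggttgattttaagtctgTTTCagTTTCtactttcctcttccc
Irgm1: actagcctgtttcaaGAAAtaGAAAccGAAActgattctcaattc
A match describes the letters in the window and not a bound site. For Irf7, Ifit2, Oasl2 and Ifi44 the window did not hold these letters. The Ifit3 probe may also read Ifit3b, a near-identical neighbour, so its values are those of either gene.

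The annotation of the array places its probes in build mm8. The probes of Ifit1, Ifit2 and Ifit3 lie at chr19:34715303-34715362, chr19:34641751-34641810 and chr19:34654612-34654671, and that of Irf7 at chr7:141116085-141116435. The Usp18 probe lies at chr6:121236114-121236173, the Oasl2 probe at chr5:115173158-115173217, the brightest Irgm1 probe at chr11:48708990-48709049 and the brightest Ifi44 probe at chr3:151668457-151668516. The Isg15 probe carries the Isg15 accession but is placed by the array's annotation on chromosome 17 (chr17:45870420-45870479), whereas RefSeq has the gene on chromosome 4, so the values given for Isg15 may include signal from another locus, which was not tested. Exon positions in mm8 were not analysed here.

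All 9 genes were measured in every liver. The brightest probe of each was well above background in the Cy5 channel on 36 of 36 arrays and saturated on none, with a mean Cy5 signal between 3.69 times background for Ifit2 and 125 times for Irgm1. The 36 arrays lay on 9 slides of 4, and each slide held all 3 groups and had its own scan time. One array was brighter than the rest: 96.7% of the spots of quercetin replicate 2 were well above background, against 56.4 to 67.4% elsewhere. It held the highest value of the 36 livers for 17.5% of all probes, and the array of control replicate 1 held it for 11.1%. The authors' table shared one median, 8.96, across arrays. The log ratios of the arrays correlated with each other between -0.45 and 0.82 over all probes, and the direction of each ratio was taken from the dyes named in the labels.

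One control liver carried far more mRNA of all 9 genes than the rest. Control replicate 9 was the highest of the 36 livers for 9 of 9 genes, whereas it was the highest for 2.35% of all 21781 probes. Irgm1 was 14.93 in this liver and 12.36 ± 0.32 (SD, n = 11) in the other control livers, a 5.95-fold difference. Isg15 was 12.37 against 10.47 ± 0.32, a 3.74-fold difference. Ifi44 was 10.18 against 8.32 ± 0.29, a 3.63-fold difference. For the other six genes the same liver lay 1.92-fold (Ifit2) to 3.11-fold (Ifit1) above the mean of the other controls. The nearest other liver was close for Ifit1, where quercetin replicate 4 reached 10.48 against 10.56 in the authors' table (0.75 against 1.45 by the scanner log2 ratio, a gap of 0.70 where the table gives 0.08), and far for Irgm1, where control replicate 4 came next with 12.88. The second probes of Irgm1 and Ifi44 showed the same liver on top, by 2.67 and 1.31 log2 units over the other controls. Recomputing the ratios from the scanner signals gave 2.61 log2 units for Irgm1, 1.90 for Isg15 and 0.74 for Ifit2. By the promoter sequences shown above, the 4 genes whose window holds the core were 2.40-fold to 5.95-fold above the other controls in this liver. The 4 whose window does not hold it were 1.92-fold to 3.63-fold above, and Usp18, which had no window, was 2.98-fold above. The ranges overlapped, and of the genes with the core Irgm1 (5.95-fold) and Isg15 (3.74-fold) lay above the second range. Whether the core bears on the size of the difference was not tested. With 1 such liver no test between conditions applies to it, and the comparisons of the 9 genes that involve the control group are therefore given with and without it.

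**Figure D1:**
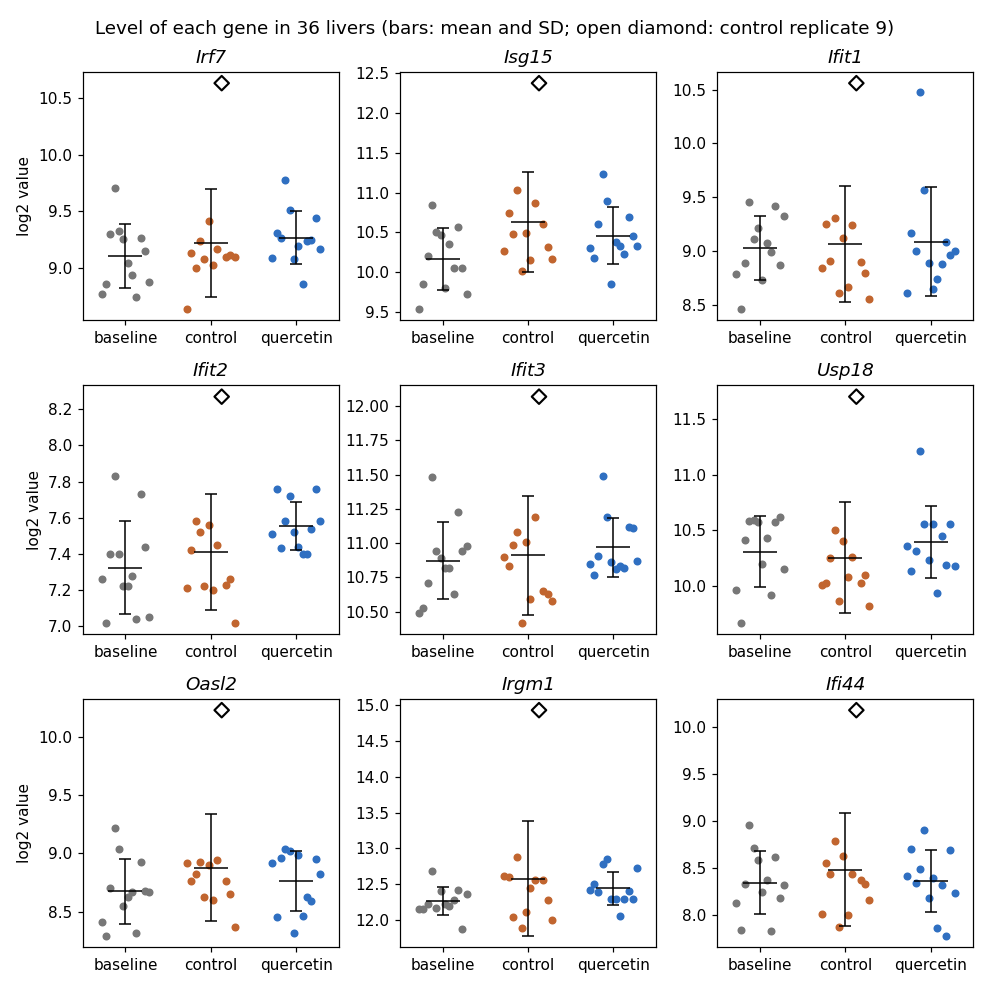
Level of each of the 9 genes (log2 value of the brightest probe, vertical axis) in the 12 livers of the baseline, control and quercetin groups. Points are single livers, bars the group mean and SD, and the open diamond is control replicate 9, which lies above all other livers in each panel, by 2.06 log2 units for Irgm1 and by 0.08 for Ifit1 (0.70 by the scanner log2 ratio).

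Within groups, livers differed more in these genes than in most others. At baseline the SD of the 9 genes had a median of 0.28, against 0.16 for all probes, and Isg15 (SD 0.39) varied more than 96.4% of probes. In the control group the median SD was 0.50 against 0.17, and 0.25 without replicate 9. In the quercetin group it was 0.26 against 0.17. Ifit2 was the steadiest gene there, with an SD of 0.13 that was above only 24.9% of all probes, and Ifit1 the most variable, with an SD of 0.51. Baseline replicate 4 and quercetin replicate 4 were the high livers of their groups, and their mean over the 9 genes lay 0.52 and 0.53 log2 units above the group mean, after control replicate 9 with 1.5.

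The first comparison asks whether 12 weeks of quercetin changed these genes against the same diet without it. No difference between the quercetin and control groups passed the test for any of the 9 genes. By limma with Benjamini-Hochberg adjustment over all probes (adjusted p under 0.05, which is what a call means throughout), 0 of 9 were called, and 0 of 9 had an unadjusted p under 0.05, while 2.36% of all probes were called (1.49% higher and 0.863% lower in quercetin). The methods' t-test with the same adjustment also called 0. Differences ran from -0.17 for Isg15 to 0.14 for Ifit2 and Usp18. The widest 95% interval, that of the most variable gene, Irgm1, reached 0.45 to either side of its estimate. This width is before adjustment over all probes, so even a somewhat larger change in Irgm1 could have gone uncalled. Without control replicate 9 the Irgm1 interval was -0.14 to 0.30 (SE 0.11).

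Irf7, the transcription factor, ran from 8.64 to 10.63 in the control livers (median 9.11) and from 8.86 to 9.78 in the quercetin livers (median 9.25). The ranges overlapped, and the difference was 0.04 (SE 0.14, 95% interval -0.25 to 0.34, limma adjusted p = 0.908). The 9.78 belonged to quercetin replicate 4, whose Irf7 signal was only 3.32 times background, the lowest of the 36 arrays. Its scanner log2 ratio was 0.01, below the 0.22 of baseline replicate 4, so its Irf7 level is uncertain. Isg15 ran from 10.02 to 12.37 in controls (median 10.49) and from 9.86 to 11.23 with quercetin (median 10.35), and 4 of 12 quercetin livers lay above the control median. Usp18, which removes Isg15 from proteins, ran from 9.82 to 11.70 (median 10.09) and from 9.94 to 11.21 (median 10.33), and 11 of 12 quercetin livers lay above the control median, although the difference of 0.14 (SE 0.16) was not called (limma adjusted p = 0.709).

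Of the RNA-binding Ifit genes, Ifit1 ran from 8.55 to 10.56 in controls (median 8.90) and from 8.61 to 10.48 with quercetin (median 8.98). Ifit2 ran from 7.02 to 8.27 (median 7.34) and from 7.40 to 7.76 (median 7.53). All 12 quercetin livers were above the Ifit2 control median in the authors' table. The control range enclosed all of them only through control replicate 9, since the other 11 controls ran from 7.02 to 7.58, and the groups still overlapped without it. The bright array of quercetin replicate 2 was at 7.76 in the authors' table, but its scanner log2 ratio of -0.2 was the lowest of its group. Ifit3 ran from 10.42 to 12.07 (median 10.86) and from 10.77 to 11.49 (median 10.86), so that the medians were equal. The second Ifit2 probe, outside the authors' table, gave scanner log2 ratios to the pool of -0.05 ± 0.19 in controls and -0.02 ± 0.08 with quercetin (SD, n = 12), and was well above background on 8 and 10 of the 12 arrays.

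Oasl2 ran from 8.37 to 10.23 in controls (median 8.79) and from 8.32 to 9.04 with quercetin (median 8.87). Ifi44 ran from 7.87 to 10.18 (median 8.40) and from 7.77 to 8.90 (median 8.36). The GTPase Irgm1 ran from 11.89 to 14.93 (median 12.50) and from 12.06 to 12.85 (median 12.40), and its 2 probes gave differences of -0.13 and -0.10. For these 3 genes the means were lower with quercetin, by 0.11 to 0.13, and for each the control mean contained the 1 high liver.

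When control replicate 9 was left out, 0 of 9 were called (2.01% of all probes), and 2 of 9 had an unadjusted p under 0.05. Those were Ifit2 (0.22, SE 0.07, limma adjusted p = 0.0862) and Usp18 (0.27, SE 0.11, limma adjusted p = 0.221). Oasl2, Irgm1 and Ifi44 then changed sign, to 0.01, 0.08 and 0.04, so that 8 of 9 differences were above 0 where 5 of 9 had been, beside 53.9% of all probes. The 9 genes rose and fell together between livers (median r 0.64 without this liver), so their signs are not 9 separate observations. The median of the 9 differences was 0.16 without this liver and 0.02 with it, while that of all probes was 0.01 either way. The signs of Oasl2, Irgm1 and Ifi44 thus rested on a single control liver.

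**Figure D2:**
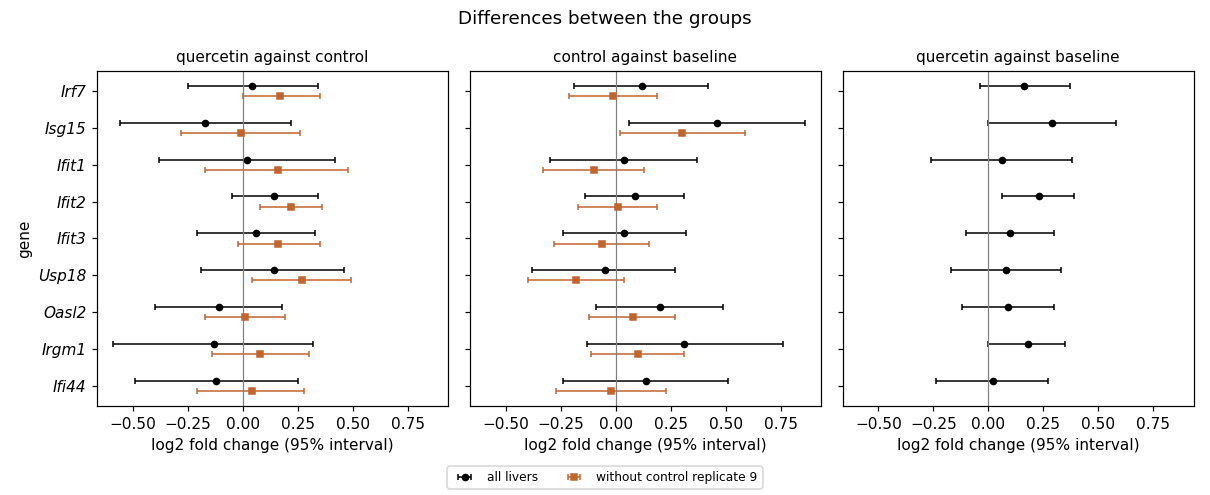
Log2 fold change of each gene (horizontal axis) with its 95% interval from limma, in the 3 comparisons between groups of 12 livers; squares leave out control replicate 9. The intervals narrow and the control comparisons shift when this liver is left out, and no gene was called in any panel.

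The second comparison, control against baseline, follows 12 further weeks on the same diet. Again 0 of 9 genes were called, beside 21.3% of all probes (10.9% higher and 10.4% lower), and 1 of 9 had an unadjusted p under 0.05. That gene was Isg15, the ubiquitin-like modifier. It ran from 9.54 to 10.84 at baseline (median 10.12) and from 10.02 to 12.37 in the controls, and 11 of 12 controls lay above the baseline median. The difference was 0.46 (SE 0.20, 95% interval 0.06 to 0.86, limma adjusted p = 0.0909), and 0.30 (SE 0.14, limma adjusted p = 0.12) without control replicate 9. The other 8 differences ran from -0.05 for Usp18 to 0.31 for Irgm1. Without control replicate 9 the count remained 0 of 9 (20.9% of all probes), the median difference went from 0.12 to -0.01, and 4 of 9 were above 0 where 8 of 9 had been.

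Quercetin against baseline used the same baseline livers, so the 2 comparisons with baseline are not independent of each other. Here too 0 of 9 genes were called, beside 11.9% of all probes (6.62% higher and 5.30% lower), and 3 of 9 had an unadjusted p under 0.05. Ifit2 ran from 7.02 to 7.83 at baseline (median 7.27), and 12 of 12 quercetin livers lay above that median (difference 0.23, SE 0.08, limma adjusted p = 0.0628). Among the 12 was quercetin replicate 2, at 7.76 in the authors' table but lowest of its group (-0.2) by the scanner log2 ratio. Leaving out baseline replicate 4 or baseline replicate 10, Ifit2 was called (0.275 and 0.265, limma adjusted p = 0.0111 and 0.0262). Isg15 was higher by 0.29 (SE 0.14, limma adjusted p = 0.187) and Irgm1 by 0.18 (SE 0.08, limma adjusted p = 0.178), each in 11 of 12 quercetin livers. All 9 differences were above 0, from 0.02 for Ifi44 to 0.29 for Isg15, beside 54.6% of all probes. Because the genes co-varied between livers, these signs are not 9 separate observations either.

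The rest of the interferon pathway was examined through lists of ligands, receptors, signal transducers, interferon regulatory factors, nucleic acid sensors, other antiviral genes, interferon-gamma-induced GTPases and negative regulators. Of their 126 genes outside the 9, 96 had a probe in the authors' table. Between quercetin and control 1 of 96 was called (1.04%). It was Sting1, the adaptor of cytosolic DNA sensing, which was lower by 0.20 with quercetin (SE 0.06, limma adjusted p = 0.0489), in 11 of 12 livers. It was not called with slide as a fixed block, with loess on the scanner signals, with quantile normalization or without quercetin replicate 2. With control replicate 9 left out, limma called none of the 96, and the difference of Sting1 was -0.19 (SE 0.06, limma adjusted p = 0.0814).

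After 12 weeks on the diet, 9 of the 96 genes were higher and 1 lower in control than at baseline, a share of 10.4% that was below the 21.3% of all probes. Irf1, the transcription factor most directly tied to interferon gamma, rose by 0.57 (SE 0.18, limma adjusted p = 0.0251). The membrane protein Bst2, which tethers budding viruses, rose by 0.49 (SE 0.10, limma adjusted p = 0.00151), Ifi27 by 0.50 (SE 0.09) and the exonuclease Isg20 by 0.48 (SE 0.08), each in 12 of 12 control livers. Tor3a rose by 0.42, the receptor chains Ifngr1 and Il10rb by 0.24 each, the adaptor Traf3 by 0.23 and the phosphatase Ptpn11 by 0.17. Irf5 fell by 0.22. With that liver left out, 9 rose and 4 fell, Irf1 rising by 0.44 (SE 0.14), Ifi27 by 0.47, Isg20 by 0.45, Bst2 by 0.42 and Tor3a by 0.39.

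In quercetin against baseline 12 of the 96 were higher and 2 lower, 14.6% against 11.9% of all probes. Igtp, an interferon-gamma-induced GTPase of the same family as Irgm1, rose by 0.90 (SE 0.20, limma adjusted p = 0.00402) in 12 of 12 livers. Its relatives Irgm2 and Iigp1 rose by 0.57 (SE 0.13) and 0.27 (SE 0.08), and no other of the 12 listed GTPases was called. Irf1 rose by 0.50 (SE 0.12) in 12 of 12 livers. Socs1, which inhibits Jak kinases, rose by 0.40, Isg20 by 0.35, Bst2 by 0.33, Ifi27 by 0.32, Tor3a by 0.29 and Rtp4 by 0.28. The 2 that fell, named after their values were seen, were Sting1 (by 0.22) and the RNA sensor Ifih1 (by 0.23). In control against baseline the values of Igtp and Irgm2 were 0.91 (SE 0.39) and 0.61 (SE 0.25) and were not called, with limma adjusted p = 0.0918 and 0.0737. Leaving out control replicate 9 brought them to 0.56 (SE 0.24, limma adjusted p = 0.0889) and 0.41 (SE 0.17, limma adjusted p = 0.0847). The median of the 12 GTPases was 0.38 in control against baseline and 0.27 in quercetin against baseline, where that of all probes was 0.00 and 0.01. The first of these was 0.19 without control replicate 9.

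Some transducers and the type I receptor were named whatever their values. Stat2 was 11.22 ± 0.21 at baseline, 11.43 ± 0.28 in control and 11.22 ± 0.23 with quercetin (SD, n = 12), and Irf9 was 10.92 ± 0.10, 11.02 ± 0.27 and 11.01 ± 0.24. The receptor chains Ifnar1 and Ifnar2 differed by at most 0.08 in any comparison. None of these 4 genes was called in any of the 3 comparisons, with limma adjusted p from 0.115 to 0.979. The same held without control replicate 9, with limma adjusted p from 0.194 to 0.995, where Stat2 differed by -0.16 between quercetin and control and by 0.17 between control and baseline.

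Markers of other liver cells were called no more often than probes in general in control against baseline, with 6 of 49 (12.2%, and 14.3% without control replicate 9) against 21.3% of all probes. In quercetin against baseline 9 of 49 were called (18.4% against 11.9%), and in quercetin against control 1 of 49 (2.04% against 2.36%). Of 12 Kupffer cell markers C1qc was higher in control than at baseline by 0.43, and with quercetin C1qc and Folr2 by 0.32 and 0.34. Of 5 B and plasma cell markers Ms4a1 and Jchain were higher in both 12-week groups, Jchain by 0.74 in control and 0.57 with quercetin. Of 5 neutrophil and monocyte markers S100a9 was higher by 0.72 in both, and with quercetin 2 of the 5 were called higher. Of 7 hepatocyte markers Cps1 was lower, by 0.32 in control and 0.45 with quercetin, and Ttr and Apoc3 were lower with quercetin. Of 8 endothelial and stellate cell markers Pecam1 was lower in control than at baseline, by 0.34, and higher in quercetin than in control, by 0.38. No T and NK cell marker (8 measured) or plasmacytoid dendritic cell marker (4 measured) was called. In whole liver, more cells of a type and more RNA per cell cannot be told apart, and the part of these cells in the interferon genes was not tested.

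In control replicate 9 the rest of the pathway showed which groups of genes stood high together with the 9. All 12 interferon-gamma-induced GTPases had their highest value of the 36 livers there. Tgtp1, whose probe may also read its near-identical neighbour Tgtp2, reached 15.87 against a mean of 11.00 in the other controls, a 29.3-fold difference, and Igtp was 18.1-fold, Iigp1 15.1-fold and Gbp6 11.8-fold above the other controls. The smallest difference in this list was 2.70-fold, for Gbp5. The median of the list was 2.87 log2 units, above the 1.58 of the 9 genes.

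Of the 44 other antiviral genes measured, 31 had their highest value in this liver (70.5%), with a median difference of 0.66 log2 units from the other controls. Rtp4 and Uba7, the activating enzyme for Isg15, stood 3.01-fold and 3.00-fold above, and the radical enzyme Rsad2 1.93-fold. Mx2, a dynamin-like antiviral GTPase, was 1.76-fold above, but was not highest in this liver (10.17 against 10.74 elsewhere). Of the transducers, Irf9 was 1.57-fold and Stat2 1.47-fold above the other controls, and both were at their highest in this liver. Irf1 was 3.18-fold and Irf8 1.95-fold above. The nucleic acid sensor Zbp1 was 9.52-fold above, and Socs1 2.35-fold.

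The measured ligands and receptor chains were not high in this liver, but only 6 of the 18 listed ligands were measured. None of these 6 ligands and none of the 5 measured receptor chains had its highest value there. Of the 13 measured nucleic acid sensors and adaptors, 4 did, among them Zbp1. Ifng, interferon gamma itself, was 6.88 in this liver and 6.84 on average in the other controls, with a mean Cy5 signal of 2.39 times background over the 36 arrays. The receptor chains lay 0.07 to 0.25 log2 units below the other controls. The mean Cy5 signal of the 6 measured ligands was 2.33 to 4.44 times background, so a small change in any of them was not detectable.

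Cell markers in control replicate 9 were as follows. The mean level of the 12 Kupffer cell markers was 11.60, within the 11.00 to 11.92 of the other controls, although Marco alone was 1.95 log2 units above their mean. That of the 8 T and NK cell markers was 8.03, within 7.55 to 8.12, and that of the 5 neutrophil and monocyte markers was 8.76, within 7.93 to 8.77, where Plac8 had its highest value. The B and plasma cell markers (7.28, other controls 7.17 to 7.76), plasmacytoid dendritic cell markers (8.04, 8.00 to 9.72) and hepatocyte markers (16.09, 16.01 to 16.36) were also within the range of the other controls. The endothelial and stellate cell markers were just below it (10.13, against 10.26 to 10.53). On the array of this liver 65.2% of spots were well above background, within the range of the other arrays.

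**Figure D3:**
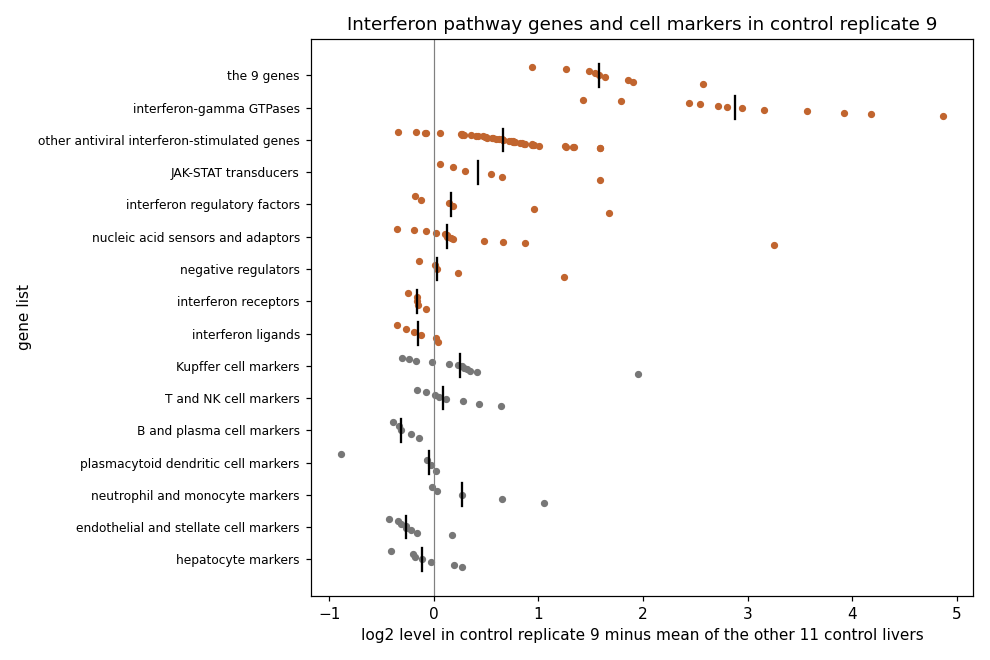
Level in control replicate 9 minus the mean of the other 11 control livers (log2 units, horizontal axis) for each measured gene of the 9, of the pathway lists (orange) and of the cell marker lists (grey); short black lines are medians. The GTPases (median 2.87) and the 9 genes (median 1.58) lie to the right, ligands (-0.15) and receptors (-0.16) near 0.

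Between livers the 9 genes rose and fell together. After the mean of each group was subtracted, the 36 pairs of genes correlated over the 36 livers with r from 0.67 (Ifit2 with Irgm1, and Ifit1 with Ifit2) to 0.88 (Isg15 with Ifit3), with a median of 0.81. Without control replicate 9 the median was 0.64 and the range 0.32 to 0.79. Spearman's correlation, which gives a single extreme liver less weight, had a median of 0.67 with this liver and 0.65 without it. Centred within slides as well as groups, the median r was 0.83, and 0.70 without this liver. Within single groups the median r was 0.75 at baseline (0.17 to 0.92), 0.58 with quercetin (0.14 to 0.88) and 0.94 in control (0.82 to 0.98), each over 12 livers. In control without replicate 9 it was 0.70 over 11 livers, with a range from -0.11 to 0.93. Among those 11 livers Irf7 was hardly related to Oasl2 (r = 0.03), Ifit3 (0.20) or Irgm1 (-0.11), and its r with the other five genes ran from 0.40 to 0.64.

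Irgm1 followed the others least. Its correlation with Irf7 was 0.75 over 36 livers and 0.34 over 35, and with Ifit2 it was 0.67 and 0.32. The closest pairs without control replicate 9 were Isg15 with Ifit3 (0.79), Ifit1 with Ifit3 (0.78), Irf7 with Usp18 (0.75) and Isg15 with Ifit1 (0.75).

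**Figure D4:**
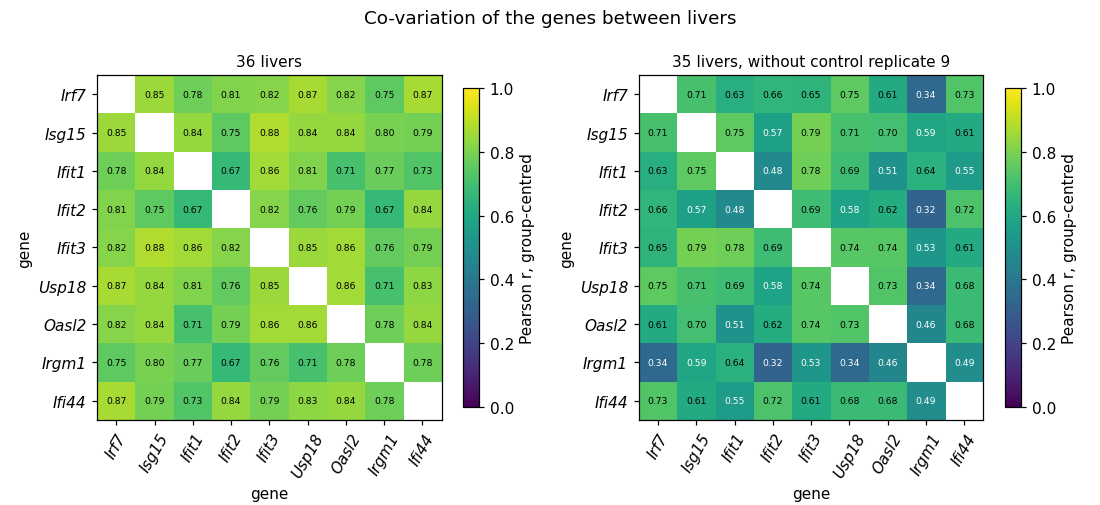
Pearson correlation between each pair of the 9 genes after centring within groups (colour, from 0 to 1, both axes list the genes), over 36 livers and over 35 livers without control replicate 9. The median fell from 0.81 to 0.64, and the row of Irgm1 fell the most, to 0.32 with Ifit2.

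Irf7 was used as the reference gene to test this co-variation against the whole table, with a limma fit of every other probe on Irf7 and group. All 8 other genes were called with a positive slope, beside 1.64% of 21780 probes. Usp18 rose by 0.97 (SE 0.10, limma adjusted p = 2.41e-08) and Ifi44 by 1.1 (SE 0.11, limma adjusted p = 2.41e-08) for each log2 unit of Irf7, and the slopes of the rest ran from 0.58 for Ifit2 to 1.16 for Isg15. The second probes of Irgm1 and Ifi44 were called too, with slopes of 1.09 and 0.67. Leaving out control replicate 9, 7 of 8 genes were called, beside 1.39% of probes. The exception was Irgm1, whose slope went from 1.07 (SE 0.16) to 0.36 (SE 0.17, limma adjusted p = 0.214), and the second Ifi44 probe was no longer called (0.46, SE 0.16, limma adjusted p = 0.0747). No other single liver changed the count of 8.

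The correlations with Irf7 gave the same picture by permutation of livers within groups (100000 permutations, two-sided, 8 relations). Over 36 livers Pearson's r ran from 0.75 (Irgm1, permutation p = 0.0018) to 0.87 (Usp18 and Ifi44, permutation p = 0.00001, the smallest these permutations can give), and Spearman's rho from 0.37 (Irgm1, permutation p = 0.023) to 0.78 (Usp18, permutation p = 0.00001). Over 35 livers r ran from 0.34 (Irgm1, permutation p = 0.038) to 0.75 (Usp18, permutation p = 0.00001), and rho from 0.26 (Irgm1, permutation p = 0.12) to 0.75 (Ifi44, permutation p = 0.00001). Without the 2 livers farthest from the Irf7 median, control replicate 9 and quercetin replicate 4, r was 0.54 to 0.76 for 7 genes and 0.27 for Irgm1. For Irgm1 the relation with Irf7 thus rested on those livers. Over all other probes the median r with Irf7 was -0.06, and 1.72% of them had an r over 0.5.

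**Figure D5:**
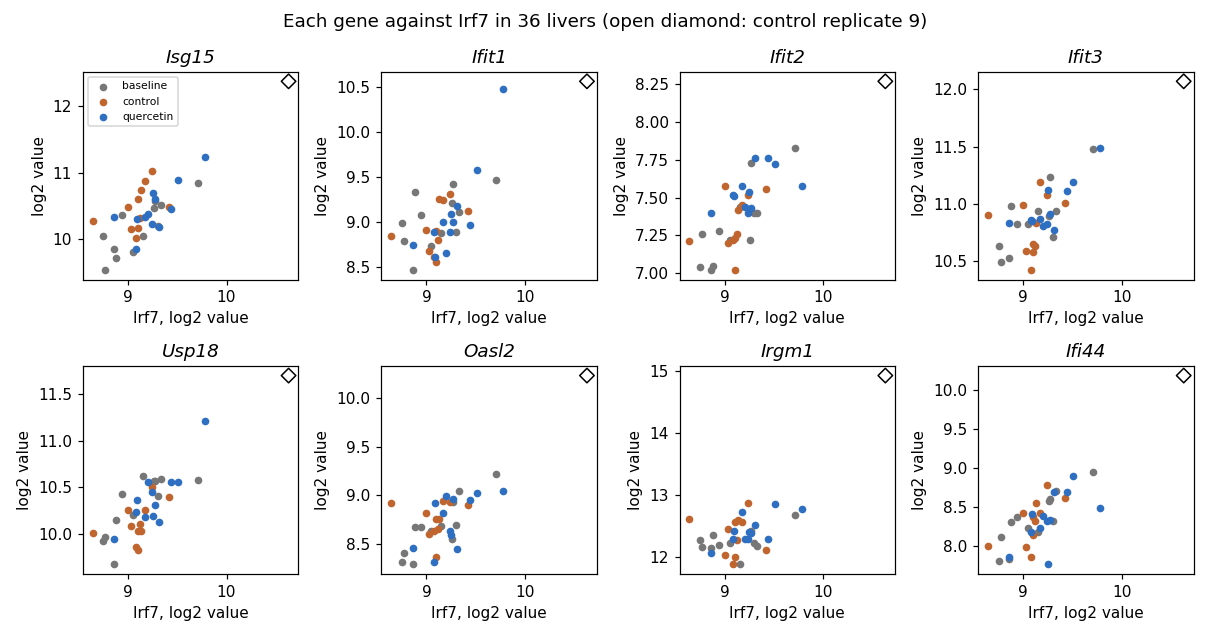
Level of each of the other 8 genes (vertical axis, log2 value) against Irf7 (horizontal axis, log2 value) in 36 livers coloured by group. Control replicate 9 (open diamond) lies at the upper right of each panel; the remaining points rise with Irf7 for Usp18 and Ifi44 (r = 0.75 and 0.73 over 35 livers) and less for Irgm1 (r = 0.34).

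The same fit showed which other pathway genes followed Irf7. Of the 96, 51 were called with a positive slope and 0 with a negative one over 36 livers, and 21 and 0 over 35 livers. All 12 GTPases were called over 36 livers, but 2 of 12 without control replicate 9, whereas the other antiviral genes went from 32 to 14 of 44. None of the 6 measured ligands or 5 measured receptor chains was called with or without this liver. Of the 12 Kupffer cell markers 1 was called positive over 36 livers and 4 over 35, beside 1.64% and 1.39% of all probes. Of the 8 T and NK cell markers 1 and 0 were called positive, and of the 5 neutrophil and monocyte markers 1 and 0. Of the 7 hepatocyte markers 1 was called negative in both fits, and the other marker lists had no call. Most of the Kupffer cell calls were thus present only without control replicate 9. What these cells contributed was not tested.

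The 10 genes outside the 9 whose pattern was most like their mean, by Pearson's r of group-centred values over 36 livers, were Uba7 (0.93), Gbp3 (0.92), Fbxo39 (0.92), Zbp1 (0.91), Samhd1 (0.91), Gbp9 (0.90), Cmpk2 (0.89), Rnf213 (0.89), Tgtp1 (0.89) and Psmb9 (0.88). Without control replicate 9 the same 10 genes had r from 0.71 (Psmb9) to 0.84 (Uba7). Of these, 6 were on the pathway lists, and Fbxo39, Samhd1, Rnf213 and Psmb9 were not. Irf9 correlated with the mean of the 9 at 0.73 and 0.62 without this liver, and Stat2 at 0.65 and 0.60, while Ifnar1 and Ifnar2 gave -0.35 and -0.14, or -0.22 and -0.03. The 10 genes were chosen for their likeness, and all these values are a description.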

How the data were processed

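Each liver RNA (Cy5) was hybridised with a Cy3 pool on 2-colour Agilent 4x44K arrays, quantified per the file headers and the submitters' processing notes with Agilent Feature Extraction 10.5.1.1 (build mm8). The authors' deposited table holds log2 values for spots called expressed; setting it against the scanner files showed log2 Cy5 minus log2 Cy3 plus the spot's mean log2 Cy3 (median absolute difference 0.0192). Scanner files give deposited intensity values per spot and, per the file headers, log10 ratios; these served as alternatives (normexp offset 50, then loess or median centring). Spots of a probe were averaged. Symbols came from RefSeq by accession (24375 probes) or, where that gave none, by gene name or synonym (8727 probes). Groups were compared with limma 3.58.1 (R 4.3.3), two-sided, on the 2 groups compared, Benjamini-Hochberg over 21781 probes. The genes, lists and comparisons were chosen with earlier results of these data known. Genes named: the 9, Stat2, Irf9, Ifnar1, Ifnar2, called pathway genes (at most 10 per comparison, largest change first, and exceptions said in the text) and the 10 most alike; genes named for control replicate 9 were chosen after their values were seen. One item of this rule is not reported here. The fits were tested on simulated data. The number of arrays limits the precision.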

Additional observations from a re-analysis of the deposited data

How the results depend on the processing

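The number of the 9 genes called was 0 in each comparison and remained 0 under the alternatives tried, with these exceptions. With normexp and median centring of the scanner signals it was 1 in control against baseline (Isg15, 0.573, limma adjusted p = 0.0489). With the Feature Extraction log ratio it was 1 in quercetin against baseline (Ifit2, 0.386, limma adjusted p = 0.0292), and leaving out one mouse at a time gave 0 to 1 there, the 1 being Ifit2 without baseline replicate 4 or 10. Same-numbered mice showed little shared deviation (median r of their deviations -0.00971, 0.0606 and 0.0327 in the 3 comparisons, highest 0.15, 0.36 and 0.28). This gave no ground for pairing mice by number, but it cannot show that the numbers carry no pairing. With the replicate block the count was 0 in all 3 comparisons. Of 990 alternative values of single-gene differences, 958 kept their direction and 32 took the opposite sign. With median centring these were Irf7 (-0.0311) and Ifit1 (-0.0887) in quercetin against control, Usp18 (0.0612) in control against baseline and Ifi44 (-0.00894) in quercetin against baseline. With the Feature Extraction log ratio they were Ifit3 (-0.00129) in control against baseline and Ifi44 (-0.00433) in quercetin against baseline. With slide as a fixed block they were Ifit1 (-0.00598) in control against baseline and Ifi44 (-0.000432) in quercetin against baseline, and without the array of quercetin replicate 2 it was Ifi44 (-0.0144) in the latter. Leaving out one mouse at a time, quercetin against control ranged from -0.00864 to 0.173 for Irf7, from -0.105 to 0.158 for Ifit1, from -0.159 to 0.0102 for Oasl2, from -0.197 to 0.0804 for Irgm1 and from -0.174 to 0.0359 for Ifi44. Control against baseline ranged from -0.0107 to 0.173 for Irf7, from -0.101 to 0.0827 for Ifit1, from -0.0649 to 0.0956 for Ifit3 and from -0.0191 to 0.192 for Ifi44. Quercetin against baseline ranged from -0.0693 to 0.102 for Ifit1 and from -0.0322 to 0.0726 for Ifi44. The count of other pathway genes called in quercetin against control was 1 and became 0 with loess on the scanner signals, quantile normalization, slide as a fixed block, without the array of quercetin replicate 2 and, an alternative chosen after seeing the data, without control replicate 9. In quercetin against baseline it was 14, and 9 with all 36 arrays in one fit. The median correlation between the 9 genes was 0.673 by Spearman and ranged from 0.645 (without control replicate 9) to 0.822 leaving out one mouse at a time. The cause of these changes was not tested.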

Other observations

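Genes outside the lists that stood highest in control replicate 9 above all other livers included parts of the antigen-processing machinery, chosen here after their values were seen. The immunoproteasome subunits Psmb9, Psmb8 and Psmb10 were 6.06-fold, 3.71-fold and 3.06-fold above the mean of the other controls, and the peptide transporter Tap1 was 3.36-fold above. The chemokine Cxcl10, an attractant of T cells, was 4.17-fold above, and Cd274, the ligand of the PD-1 receptor, 3.79-fold. The largest gap between this liver and the next highest belonged to Tgtp1 (3.56 log2 units), followed by Iigp1 (3.10) and Igtp (3.06), and among genes on no list to BC023105 (2.85). Gaps at the low end were smaller: the potassium channel gene Kcnj16 was 0.70 log2 units below the lowest of the other livers, and no other named gene was more than 0.50 below.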
